A study of Mus musculus with 10 samples.

Results

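The heat shock chaperones described here are 10 genes of the 24454 in the deposited counts table: Hsp90aa1, Hsp90ab1, Hspa8, Hspa1a, Hspa1b, Hsph1, Dnajb1, Hspd1, Hspe1 and Hspb1. Each was found by its Entrez identifier, and all 10 were in the table. The set was listed by name, and Hsp90aa1 was put in it because its level was higher in cells given Irf1 siRNA. Values of the 10 genes between the siRNAs are therefore given as a description, without a test.

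The cells were NMuMG/E9, a subclone of NMuMG, an epithelial line from normal mouse mammary gland that is used to follow the epithelial-mesenchymal transition started by the cytokine TGFbeta. All of them carried an siRNA at 20 nM and were harvested on day 3. RNA of 4 groups was sequenced: siRNA against Irf1 with recombinant TGFbeta1 at 2 ng/ml for 2 d (siIrf1 TGFbeta, replicates 1, 2 and 3), control siRNA with the same TGFbeta (siCtr TGFbeta, replicates 2 and 3), siRNA against Irf1 without TGFbeta (siIrf1 0 d, replicates 1, 2 and 3) and control siRNA without TGFbeta (siCtr 0 d, replicates 1 and 3). All libraries came from the same subclone. The labels name no separate cultures, so the p-values rest on the spread among these libraries, which may be technical.

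Heat shock proteins are molecular chaperones that bind unfolded or maturing proteins and keep them from aggregating. HSP70 proteins take up short exposed stretches of a client with the help of J-domain proteins, which start the ATPase cycle, and of nucleotide exchange factors, which end it. HSP90 proteins act later, on kinases, steroid receptors and other clients that are nearly folded, and HSP60 with HSP10 forms a folding chamber inside mitochondria. Many of these genes have an inducible copy, which heat shock factor 1 (HSF1) switches on under stress, and a constitutive copy that is kept high in unstressed cells.

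Depth was 27547649 to 67301646 counts per library. Levels are CPM, counts scaled to a library's effective size, and a count of 3 equals 0.0434 to 0.118 CPM. Irf1, the target of the siRNA, stood at 36.5, 46.2 and 41.0 CPM in siIrf1 TGFbeta against 106 and 112 CPM in siCtr TGFbeta, and at 56.4, 64.1 and 57.7 CPM in siIrf1 0 d against 148 and 129 CPM in siCtr 0 d, so it was lower in every siIrf1 library (edgeR log2 fold change -1.40 ± 0.153, adjusted p = 3.48e-04 with TGFbeta, and -1.22 ± 0.153, adjusted p = 7.95e-04 without it). Of the epithelial markers, Cdh1, Krt8, Krt18 and Krt19 were at 282 CPM or more in every library, while Epcam and Cldn3 had at most 1 count in a library. Cldn4 was at 26.3 to 42.8 CPM in siIrf1 TGFbeta, 65.8 and 68.0 CPM in siCtr TGFbeta and 0.0785 to 0.814 CPM in 0 d libraries, and rose with TGFbeta in siIrf1 (6.12 ± 0.423, edgeR adjusted p = 7.99e-06) and siCtr cells (8.47 ± 0.602, adjusted p = 7.35e-06). In siCtr cells TGFbeta lowered Cdh1 (-0.87 ± 0.163, edgeR adjusted p = 0.00256) and Krt19 (-2.99 ± 0.361, adjusted p = 1.92e-04). Krt18 rose there (0.95 ± 0.201, adjusted p = 0.00499), and Krt8 was not called. In siIrf1 cells Krt19 fell (-1.17 ± 0.277, edgeR adjusted p = 0.0130), and Cdh1, Krt8 and Krt18 were not called. The summed level of 6 fibroblast and pericyte markers was 27.1 to 31.4 CPM in siIrf1 TGFbeta, 34.4 to 38.9 CPM in siCtr TGFbeta and under 1 CPM in every 0 d library, with Col1a2 and Lum at 0 throughout. The 4 endothelial markers summed to 1.52 to 1.86 CPM in siIrf1 TGFbeta and 5.16 to 5.92 CPM in siCtr TGFbeta, nearly all of it Cdh5. They summed to at most 0.159 CPM in a 0 d library. Where that sum was above 0 it was mostly Pecam1, with Cdh5 at most 0.0393 CPM. The 6 immune markers summed to 1.9 to 2.97 CPM in siIrf1 TGFbeta, 6.37 to 6.86 CPM in siCtr TGFbeta and 1.73 to 2.58 CPM in 0 d libraries, most of it Cd68 with TGFbeta, and Adgre1 and Cd3e were at 0 throughout. The part of these markers in the changes with TGFbeta was not tested.

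Libraries also differed in how their counts spread over genes of low and high GC content. A GC index was taken as the median log2 deviation of the tested genes in the lowest quartile of transcript GC content (up to 44.9%) minus that of the highest quartile (54.5% and above). It was 0.70, -0.38 and 0.88 in siIrf1 TGFbeta replicates 1, 2 and 3, against -0.27 and -0.28 in siCtr TGFbeta. In siIrf1 0 d it was 0.60, 0.06 and 0.79, against -1.50 and -0.56 in siCtr 0 d. Without TGFbeta the index was thus higher in every siIrf1 library than in any siCtr library. With TGFbeta siIrf1 replicates 1 and 3 lay above the siCtr libraries and replicate 2 below them. The index was also higher in siCtr TGFbeta than in siCtr 0 d. In that comparison the median log2 fold change was 0.60 in the lowest and -0.15 in the highest GC quartile. Within their groups, siCtr 0 d replicate 1 and siIrf1 TGFbeta replicate 2 stood apart. Each result below is therefore also given, where it differs, from a fit with the GC and length trend of each library removed, and from a fit without those libraries. Removal of that trend moved the median of all genes between the siRNAs without TGFbeta to 0.14, against -0.03 as fitted, and values from that fit are to be read against this shift.

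Known heat shock elements are the DNA sites that HSF1 binds, made of GAA units in alternating directions, and their letters were looked for in RefSeq promoter windows (GRCm38.p6, 250 bases before to 50 after the start). Windows were found for 7 of the 10 genes, and none for Hsp90aa1, Hsp90ab1 and Hspa8. A run of 3 units (GAANNTTCNNGAA or TTCNNGAANNTTC, which together cover both strands) was in 0.603% of all 32851 windows, and a run of 2 units (GAANNTTC or TTCNNGAA, which lie within the longer motif) in 15.1%. The 3 sequences shown hold runs of 3 units (Hspe1, Hsph1) or belong to a pair of near-identical copies (Hspa1b). Matching letters are in capitals, and the strand of the gene is read 5′ to 3′. They are the 250 bases before the start of Hspe1 (chr1:55087898-55088147, + strand), the 250 bases before the start of Hspa1b (chr17:34959239-34959488, - strand) and the site in Hsph1. The first capital of the Hsph1 site lies 15 bases after the start on which its second window is set (chromosome 5, - strand). By the gene coordinates, that start and the site lie inside Hsph1.
Hspe1: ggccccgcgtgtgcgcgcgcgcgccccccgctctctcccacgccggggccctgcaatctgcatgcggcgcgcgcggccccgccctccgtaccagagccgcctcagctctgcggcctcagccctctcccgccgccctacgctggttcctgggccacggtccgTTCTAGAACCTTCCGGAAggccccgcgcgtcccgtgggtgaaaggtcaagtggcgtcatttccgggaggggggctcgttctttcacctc
Hspa1b: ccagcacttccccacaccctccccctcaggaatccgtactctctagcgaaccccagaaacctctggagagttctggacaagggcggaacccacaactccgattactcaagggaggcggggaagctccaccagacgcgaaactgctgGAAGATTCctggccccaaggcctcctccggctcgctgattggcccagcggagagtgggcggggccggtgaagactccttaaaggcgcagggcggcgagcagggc
Hsph1: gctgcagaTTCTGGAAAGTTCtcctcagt

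The Hspe1 sequence holds 2 overlapping runs of 3 units, joined in a longer unbroken run, whose first bases lie 89 and 84 bases before the start. By their gene coordinates, Hspd1 and Hspe1 overlap at their starts, which lie 95 bases apart on opposite strands. The region printed for Hspe1 thus lies within Hspd1. The second window of Hspd1, set on another start than these coordinates give, holds the same run on its own strand. Its first window holds none. The windows of Hspa1a and Hspa1b differed at 4 of 300 positions, and each held 1 run of 2 units, 104 bases before the start. Hspb1 had 2 runs of 2 units and Dnajb1 none. Such matches are letters in a window and were not measured as bound sites.

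**Figure D1:**
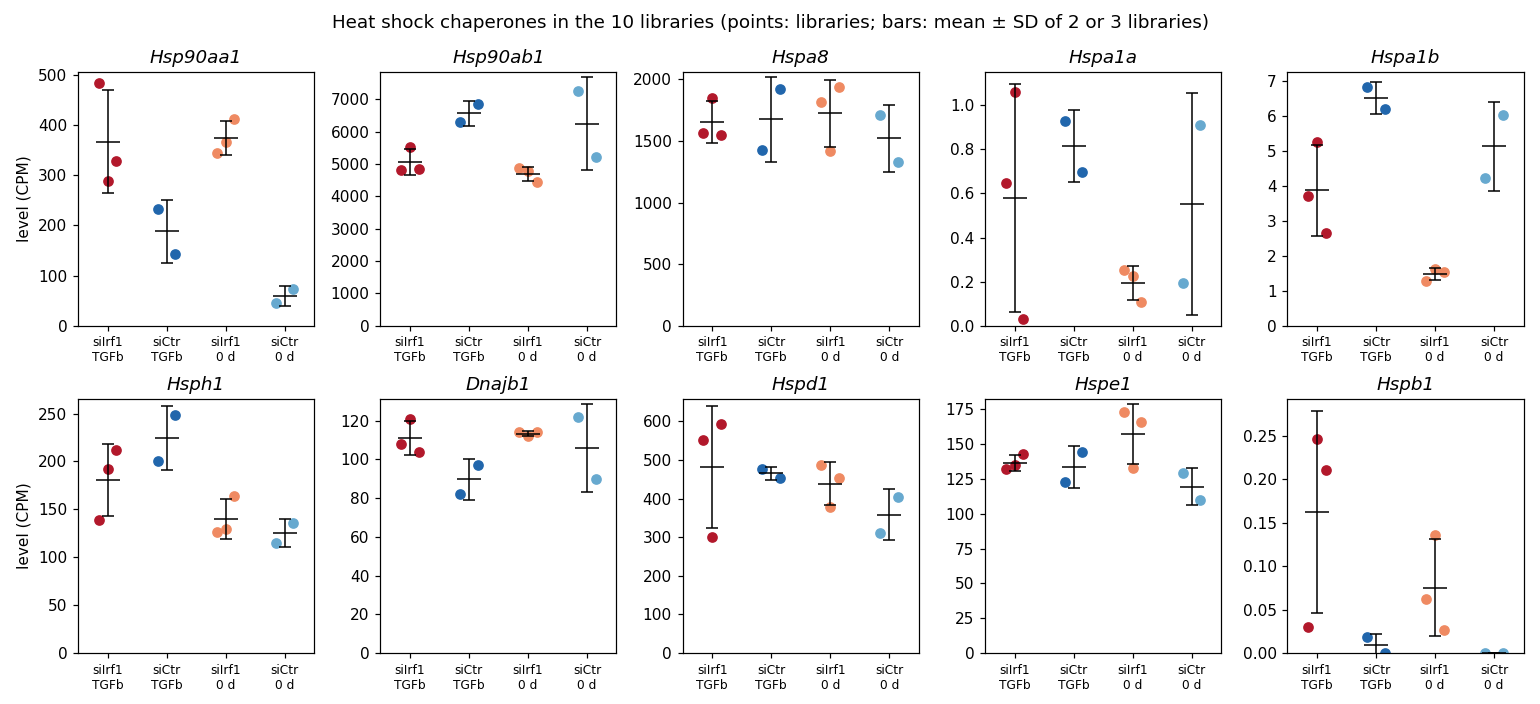
Level of each of the 10 genes (vertical axis, CPM, each panel with its own scale from 0) in the 4 groups, with a point for each library and bars for the mean ± SD of 2 or 3 libraries. Hsp90aa1 lies at 143 CPM or more in every library of the siIrf1 groups and of siCtr TGFbeta, and at 44.6 and 72.8 CPM in siCtr 0 d, and Hspa1b is lower in each siIrf1 group than in the siCtr group beside it.

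Set per kilobase of the gene length in the table, the constitutive cytosolic forms were far above the inducible ones. The median over the 10 libraries was 2012 CPM per kb for Hsp90ab1 and 780 CPM per kb for Hspa8, with ranges that did not meet (1771 to 2897 and 633 to 920). The mitochondrial pair followed, with a median of 195 CPM per kb for Hspd1 (129 to 254) and 175 CPM per kb for Hspe1 (143 to 225), ranges that overlapped over most of their length. Hsp90aa1 had a median of 108 CPM per kb and ranged over 10.8-fold, the widest span of the 8 members for which a fold could be given, so that it overlapped its neighbours on both sides. Hsph1 (median 43.6 CPM per kb) and Dnajb1 (34.1 CPM per kb) overlapped each other. The inducible HSP70 copies were lowest among the tested members, at 1.42 CPM per kb for Hspa1b and 0.161 CPM per kb for Hspa1a, ranges that did not meet, and Hspb1 was at 0.0310 CPM per kb, within the range of Hspa1a. Together the 10 genes held 0.726 to 0.940% of a library's counts, and Hsp90ab1 alone 0.461 to 0.671%.

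With TGFbeta in siIrf1 cells, 1 of the 9 members tested rose, Hspa1b, and none fell, where 21.3% of all 13135 genes tested were called (11.6% up, 9.71% down). With TGFbeta in siCtr cells, 2 of 9 rose, Hsp90aa1 and Hsph1, and none fell, where 32.5% of all genes were called (16.1% up, 16.3% down). With 1 and 2 calls among 9 genes, the members are not set apart from all genes. Their median log2 fold change was 0.11 in siIrf1 and 0.34 in siCtr cells, beside 0.02 for all genes in each. Hsp90aa1 is among these genes and was picked for its rise with Irf1 siRNA. If the pick was made in cells without TGFbeta, it shares the siCtr 0 d libraries with the siCtr comparison and the interaction. The counts and the median there are then not independent of that choice. Between the siRNAs the members' values follow below gene by gene, without a count of calls. For the interaction, the difference of the TGFbeta effect between the siRNAs, edgeR called 0 of 9 members, beside 4.12% of all genes, with 2 at an unadjusted p under 0.05 and 1 called by DESeq2.

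**Figure D2:**
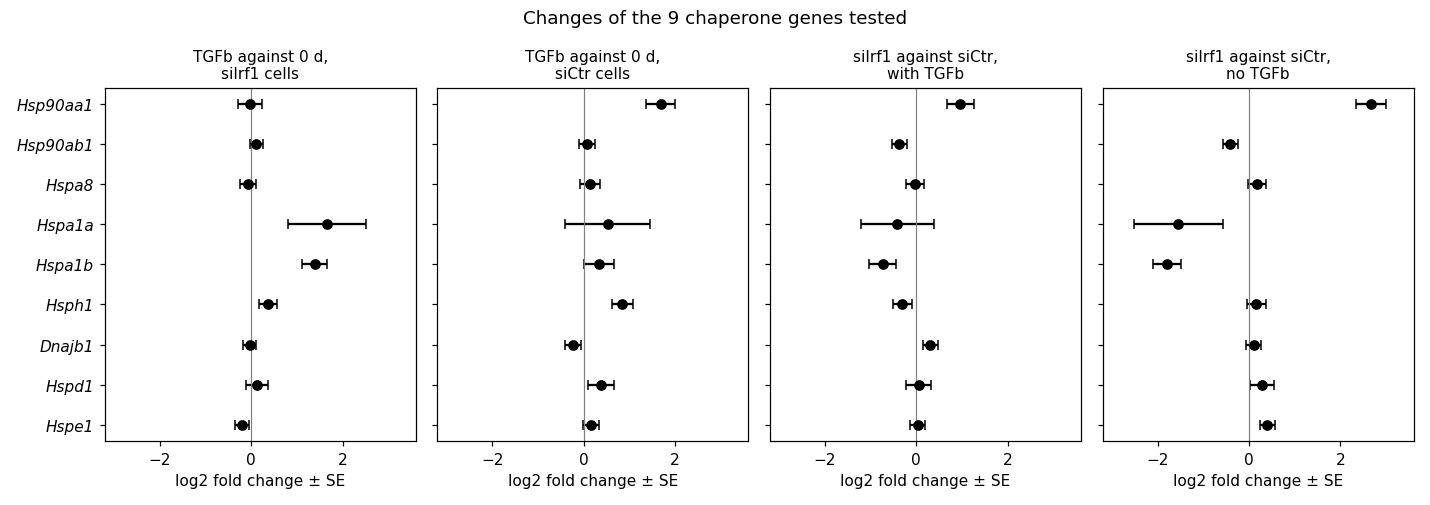
Log2 fold change ± SE (horizontal axis) of the 9 members tested, in siIrf1 and siCtr cells with TGFbeta against 0 d and for siIrf1 against siCtr with and without TGFbeta. With TGFbeta in siIrf1 cells Hsp90aa1 lies at -0.03 and Hspa1b at 1.39, while Hsp90aa1 is the farthest to the right with TGFbeta in siCtr cells (1.68) and between the siRNAs with and without TGFbeta (0.96 and 2.67).

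Hsp90aa1 (Entrez gene 15519, chromosome 12, 110691036 to 110696395 in GRCm38.p6) encodes HSP90 alpha, the stress-inducible cytosolic HSP90. Its level was 484, 289 and 328 CPM in siIrf1 TGFbeta and 233 and 143 CPM in siCtr TGFbeta. It was 345, 366 and 412 CPM in siIrf1 0 d and 44.6 and 72.8 CPM in siCtr 0 d. The siCtr 0 d libraries were thus the lowest of all, siCtr TGFbeta lay between, and the siIrf1 groups overlapped each other at the top.

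The siIrf1 libraries were above the siCtr libraries in each condition, without overlap, as were 23.4% of all genes with TGFbeta and 30.2% without it. The log2 difference was 0.96 ± 0.298 with TGFbeta (1.95-fold) and 2.67 ± 0.324 without TGFbeta (6.37-fold). These are the values that put the gene in the set. In the lowest GC quartile, to which Hsp90aa1 belongs (43.7% GC), the median was 0.48 with and 1.00 without TGFbeta, and with the GC and length trend removed the difference of Hsp90aa1 was 0.67 ± 0.226 with and 2.08 ± 0.241 without TGFbeta. Without siCtr TGFbeta replicate 3 the difference with TGFbeta was 0.60.

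With TGFbeta, Hsp90aa1 rose in siCtr cells (188 ± 63.4 CPM in siCtr TGFbeta and 58.7 ± 20.0 CPM in siCtr 0 d, SD, n = 2 each), by 1.68 ± 0.326 on the log2 scale (edgeR adjusted p = 0.00338). Removal of the GC trend left a rise of 1.48 (adjusted p = 9.36e-04), the fit lacking the libraries that stood apart gave 1.41 (adjusted p = 0.00496), and leaving out 1 library at a time gave 1.37 to 2.20. In siIrf1 cells the means were 367 ± 103 CPM in siIrf1 TGFbeta and 374 ± 34.2 CPM in siIrf1 0 d (SD, n = 3 each), which did not differ detectably (-0.03 ± 0.259, edgeR adjusted p = 0.961). The interaction was -1.71 ± 0.413 and just missed the threshold (edgeR adjusted p = 0.0509). It did not pass in 13 of 19 alternatives, with adjusted p = 0.0527 for RLE size factors, 0.121 with the replicate number as a block, 0.0678 with the block and the GC trend removed, and 0.0768 without the libraries that stood apart. It passed in the other 6, namely with DESeq2 (-1.72, adjusted p = 0.00414), without a filter on low counts (-1.79, adjusted p = 0.0269), with a stricter filter (-1.80, adjusted p = 0.0461), with the GC trend removed (-1.41, adjusted p = 0.0230) and without siIrf1 TGFbeta replicate 1 (-1.96) or siCtr 0 d replicate 3 (-2.23). The siCtr 0 d libraries are shared by the TGFbeta comparison, the interaction and the siRNA comparison without TGFbeta. If the gene was picked from cells without TGFbeta, these tests are not independent of that choice.

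**Figure D3:**
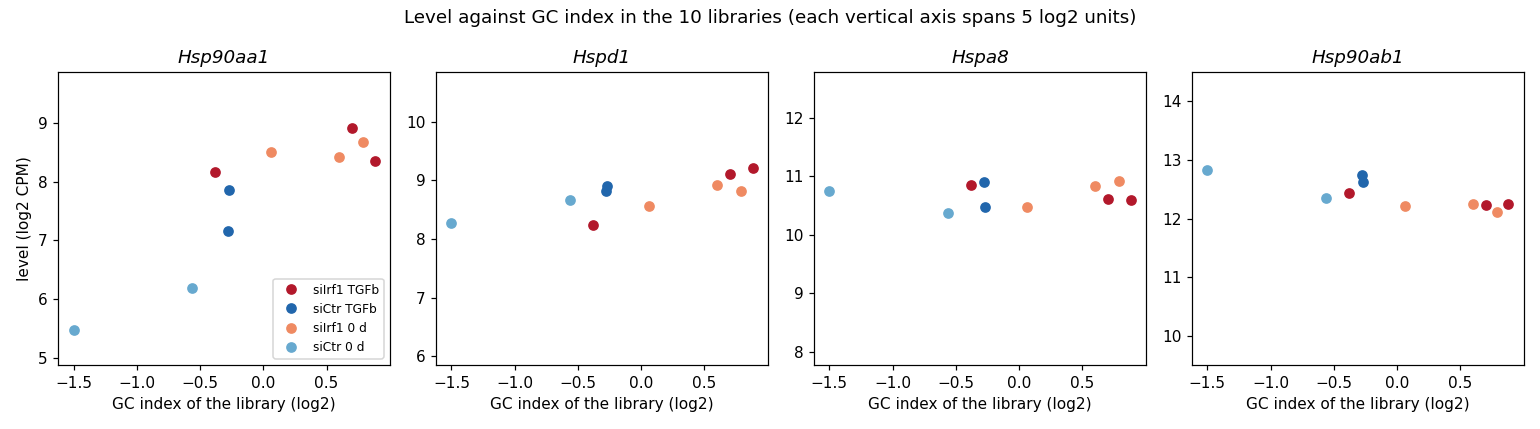
Level of Hsp90aa1, Hspd1, Hspa8 and Hsp90ab1 (vertical axis, log2 CPM, each axis of the same span) against the GC index of the library (horizontal axis, log2), with a point for each of the 10 libraries coloured by group. Hsp90aa1 is lowest in siCtr 0 d replicate 1, whose index is -1.50, and its siIrf1 libraries lie at the top over indices from -0.38 to 0.88. Over the 10 libraries the Pearson correlation with the index was 0.88 for Hsp90aa1, 0.78 for Hspd1, 0.11 for Hspa8 and -0.82 for Hsp90ab1.

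Reads of Hsp90aa1 may be shared with a copy. Of its transcript's 50-base windows, 58.5% also occur in another gene's transcript, most of them in the pseudogene Gm12346, which was no row of the counts table. How the authors' counting treated such reads is not given in the sources used here.

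Hsp90ab1 (Entrez gene 15516, chromosome 17, 45567778 to 45573261) encodes HSP90 beta, the constitutive cytosolic form. It stood at 4827, 5527 and 4857 CPM in siIrf1 TGFbeta and 6287 and 6842 CPM in siCtr TGFbeta. It stood at 4862, 4776 and 4441 CPM in siIrf1 0 d and 7263 and 5224 CPM in siCtr 0 d. Every siIrf1 library was below every siCtr library of the same condition, as were 22.9% of genes with TGFbeta and 32.1% without it.

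The log2 difference between the siRNAs was -0.37 ± 0.161 with and -0.41 ± 0.161 without TGFbeta. With the GC trend removed it was -0.24 ± 0.0922 with TGFbeta. Without TGFbeta it was 0.04 ± 0.0928 in that fit, within its SE of 0 and below the median of 0.14 for all genes. TGFbeta gave 0.11 ± 0.145 in siIrf1 cells (edgeR adjusted p = 0.665) and 0.07 ± 0.178 in siCtr cells (adjusted p = 0.780), neither called. With the GC trend removed the gene rose in siCtr cells (0.48, adjusted p = 0.00357).

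Within a library, Hsp90aa1 per 100 of Hsp90ab1, both per kb, shows how far the pair parted. The ratio was 8.81, 4.59 and 5.95 in siIrf1 TGFbeta and 3.26 and 1.84 in siCtr TGFbeta. It was 6.24, 6.75 and 8.16 in siIrf1 0 d and 0.540 and 1.23 in siCtr 0 d. The alpha form thus stayed well under the beta form in each library, and the ratio was higher in each siIrf1 library than in any siCtr library. This ratio rests on the values that put Hsp90aa1 in the set, and the 2 genes differ in GC content (43.7% and 51%).

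Hspa8 (Entrez gene 15481, chromosome 9, 40801276 to 40805202) encodes HSC70, the constitutive cytosolic HSP70, which also uncoats clathrin vesicles. Its level was 1569, 1853 and 1547 CPM in siIrf1 TGFbeta and 1429 and 1921 CPM in siCtr TGFbeta. It was 1820, 1419 and 1935 CPM in siIrf1 0 d and 1713 and 1331 CPM in siCtr 0 d. The groups overlapped in every comparison.

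No change of Hspa8 with TGFbeta was detectable, at -0.06 ± 0.176 in siIrf1 cells (edgeR adjusted p = 0.872) and 0.14 ± 0.216 in siCtr cells (adjusted p = 0.648). Between the siRNAs the log2 difference was -0.02 ± 0.197 with and 0.18 ± 0.198 without TGFbeta. It shares 51.4% of its transcript's windows with other genes, mainly the pseudogene Gm15459.

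Hspa1b (Entrez gene 15511, chromosome 17, 34956429 to 34959238) and Hspa1a (193740, chromosome 17, 34969359 to 34972156) encode the stress-inducible HSP70. Hspa1b stood at 3.72, 5.25 and 2.65 CPM in siIrf1 TGFbeta and 6.85 and 6.20 CPM in siCtr TGFbeta. It stood at 1.29, 1.63 and 1.53 CPM in siIrf1 0 d and 4.24 and 6.03 CPM in siCtr 0 d. The siIrf1 0 d libraries were below all others. Of all genes, 17.4% were higher in every siIrf1 TGFbeta than in any siIrf1 0 d library. In each condition every siIrf1 library was below every siCtr library, as for 22.9% of all genes with TGFbeta and 32.1% without it.

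Hspa1b rose with TGFbeta in siIrf1 cells (3.87 ± 1.31 CPM in siIrf1 TGFbeta and 1.48 ± 0.176 CPM in siIrf1 0 d, SD, n = 3 each), by 1.39 ± 0.279 on the log2 scale (edgeR adjusted p = 0.00487). It was called under each alternative tried, with 1.10 to 1.60 when 1 library was left out and 1.13 with the GC trend removed. In siCtr cells the change was 0.34 ± 0.324 (edgeR adjusted p = 0.439), although both siCtr TGFbeta libraries were above both siCtr 0 d libraries, as for 36.5% of all genes. The difference of these effects was 1.05 ± 0.426 (interaction, edgeR adjusted p = 0.227), so a difference between the siRNAs was not shown.

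Between the siRNAs, Hspa1b was lower by a log2 difference of -0.74 ± 0.291 with TGFbeta (0.597-fold) and of -1.79 ± 0.303 without TGFbeta (0.289-fold). The highest GC quartile, to which Hspa1b belongs (58.1% GC), had a median of -0.15 with and -0.40 without TGFbeta, and with the trend removed the values of Hspa1b were -0.44 ± 0.230 with and -1.15 ± 0.244 without TGFbeta. Hspa1b and Hsp90aa1 thus lay on opposite sides of 0 in both siRNA comparisons, as did the medians of the GC quartiles they belong to.

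Hspa1a had 0.649, 1.06 and 0.0301 CPM in siIrf1 TGFbeta and 0.930 and 0.699 CPM in siCtr TGFbeta. It had 0.251, 0.226 and 0.106 CPM in siIrf1 0 d and 0.196 and 0.909 CPM in siCtr 0 d, or 1 to 73 counts over the 10 libraries. Its groups overlapped, and no change was called, with 1.66 ± 0.853 for TGFbeta in siIrf1 cells (edgeR adjusted p = 0.221) and 0.52 ± 0.924 in siCtr cells (adjusted p = 0.689). Without siIrf1 TGFbeta replicate 3, which had 1 count, the change in siIrf1 cells was called (2.15, adjusted p = 0.0297).

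The copies cannot be told apart by most of their sequence, since 62.3% of the 50-base windows of Hspa1b also occur in Hspa1a, and the division of reads between them is uncertain. With their counts summed, the change with TGFbeta in siIrf1 cells was 1.41 (edgeR adjusted p = 0.00909) and the siRNA difference without TGFbeta -1.76, close to the values of Hspa1b alone.

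Hsph1 (Entrez gene 15505, chromosome 5, 149616843 to 149636498) encodes HSP105, an HSP110 protein that serves HSP70 as a nucleotide exchange factor. Its level was 139, 192 and 212 CPM in siIrf1 TGFbeta and 201 and 248 CPM in siCtr TGFbeta. It was 126, 129 and 164 CPM in siIrf1 0 d and 115 and 136 CPM in siCtr 0 d. Both siCtr TGFbeta libraries were above both siCtr 0 d libraries, as for 36.5% of all genes, while the siIrf1 groups overlapped.

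Hsph1 rose with TGFbeta in siCtr cells (224 ± 33.4 CPM in siCtr TGFbeta and 125 ± 15.1 CPM in siCtr 0 d, SD, n = 2 each), by 0.84 ± 0.231 on the log2 scale (edgeR adjusted p = 0.0189). The call was lost without siCtr TGFbeta replicate 3 (0.75, adjusted p = 0.110), without siCtr 0 d replicate 1 (0.77, adjusted p = 0.112) and without the libraries that stood apart (0.76, adjusted p = 0.0661). In siIrf1 cells the change was 0.37 ± 0.187 (edgeR adjusted p = 0.204), and with the GC trend removed it was called (0.46, adjusted p = 0.0495). The interaction was -0.47 ± 0.296 (edgeR adjusted p = 0.442). Between the siRNAs the log2 difference was -0.31 ± 0.208 with and 0.16 ± 0.210 without TGFbeta, with overlapping groups. None of its transcript's 50-base windows occurs in another gene, so its counts are the least exposed to copies in the set.

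Dnajb1 (Entrez gene 81489, chromosome 8, 83608175 to 83612653) encodes HSP40, the J-domain partner of cytosolic HSP70. It stood at 108, 121 and 104 CPM in siIrf1 TGFbeta and 82.2 and 97.3 CPM in siCtr TGFbeta. It stood at 114, 112 and 114 CPM in siIrf1 0 d and 122 and 90.0 CPM in siCtr 0 d. With TGFbeta the siIrf1 libraries were all above the siCtr libraries, as for 23.4% of all genes, and the 0 d groups overlapped.

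TGFbeta gave Dnajb1 -0.03 ± 0.147 in siIrf1 cells (edgeR adjusted p = 0.910) and -0.24 ± 0.180 in siCtr cells (adjusted p = 0.334), neither called. The log2 difference between the siRNAs was 0.30 ± 0.165 with and 0.10 ± 0.164 without TGFbeta. With the GC trend removed it was 0.49 with and 0.59 without TGFbeta, so the size of this difference depends on the treatment of GC content.

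Hspd1 (Entrez gene 15510, chromosome 1, 55077833 to 55088243) encodes HSP60, the barrel of the mitochondrial chaperonin, and Hspe1 (15528, chromosome 1, 55088148 to 55091317) encodes HSP10, its lid. Hspd1 stood at 552, 301 and 593 CPM in siIrf1 TGFbeta and 477 and 454 CPM in siCtr TGFbeta. It stood at 486, 377 and 454 CPM in siIrf1 0 d and 311 and 405 CPM in siCtr 0 d. The lowest values were those of siIrf1 TGFbeta replicate 2 and siCtr 0 d replicate 1, the libraries whose GC index stood apart.

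Hspe1 stood at 132, 135 and 143 CPM in siIrf1 TGFbeta and 123 and 144 CPM in siCtr TGFbeta. It stood at 173, 133 and 166 CPM in siIrf1 0 d and 129 and 110 CPM in siCtr 0 d. Its siIrf1 0 d libraries were all above the siCtr 0 d libraries, as for 30.2% of all genes, while the other groups overlapped.

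The pair overlap at their starts, which lie 95 bases apart on opposite strands, and neither gene was called with TGFbeta. The value for Hspd1 was 0.13 ± 0.238 in siIrf1 (edgeR adjusted p = 0.764) and 0.38 ± 0.291 in siCtr cells (adjusted p = 0.343). That for Hspe1 was -0.20 ± 0.144 in siIrf1 (edgeR adjusted p = 0.382) and 0.16 ± 0.176 in siCtr cells (adjusted p = 0.519). Between the siRNAs the log2 difference with TGFbeta was 0.05 ± 0.266 for Hspd1 and 0.03 ± 0.161 for Hspe1, and without TGFbeta 0.29 ± 0.268 for Hspd1 and 0.40 ± 0.163 for Hspe1. Hspe1 per Hspd1, both per kb, was 0.724, 1.36 and 0.731 in siIrf1 TGFbeta and 0.780 and 0.965 in siCtr TGFbeta. It was 1.08, 1.07 and 1.11 in siIrf1 0 d and 1.26 and 0.824 in siCtr 0 d. The ratio was highest in the libraries that stood apart, siIrf1 TGFbeta replicate 2 and siCtr 0 d replicate 1. Hspd1 shares 44.8% of its windows with other genes, mainly the pseudogene Hspd1-ps3.

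Hspb1 (Entrez gene 15507, chromosome 5, 135887919 to 135889563) encodes HSP25, the mouse form of the small heat shock protein HSP27. It had 1, 17 and 7 counts in siIrf1 TGFbeta and 1 and 0 counts in siCtr TGFbeta. It had 2, 6 and 1 counts in siIrf1 0 d and 0 and 0 counts in siCtr 0 d. These levels are at or near the limit of detection, no siCtr library had more than 1 count, and the gene did not pass the filter on low counts, so that 9 of the 10 members were tested. Its transcript shares 51.6% of its windows with the pseudogene Hsp25-ps1, which was no row of the counts table.

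The set was then read against 77 other genes of the chaperone network in 9 groups, of which 73 were tested. With TGFbeta in siIrf1 cells 2 rose and 3 fell, where 21.3% of all genes were called, and in siCtr cells 11 rose and 5 fell, where 32.5% were. Between the siRNAs 4 were higher and 5 lower in siIrf1 cells with TGFbeta, where 18.0% of all genes were called, and 12 were higher and 10 lower without TGFbeta, where 31.8% were (16.3% higher, 15.5% lower). For the interaction edgeR and DESeq2 called 0, with 7 at an unadjusted p under 0.05. With the GC trend removed these counts were, in the same order, 9 and 8, 18 and 7, 6 and 8, and 15 and 9, while the share of all genes called was 32.1, 42.4, 27.0 and 36.9%. Without the libraries that stood apart they were 12 and 11, 13 and 2, 10 and 15, and 10 and 8, while 36.3, 31.4, 36.5 and 25.8% of all genes were called.

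**Figure D4:**
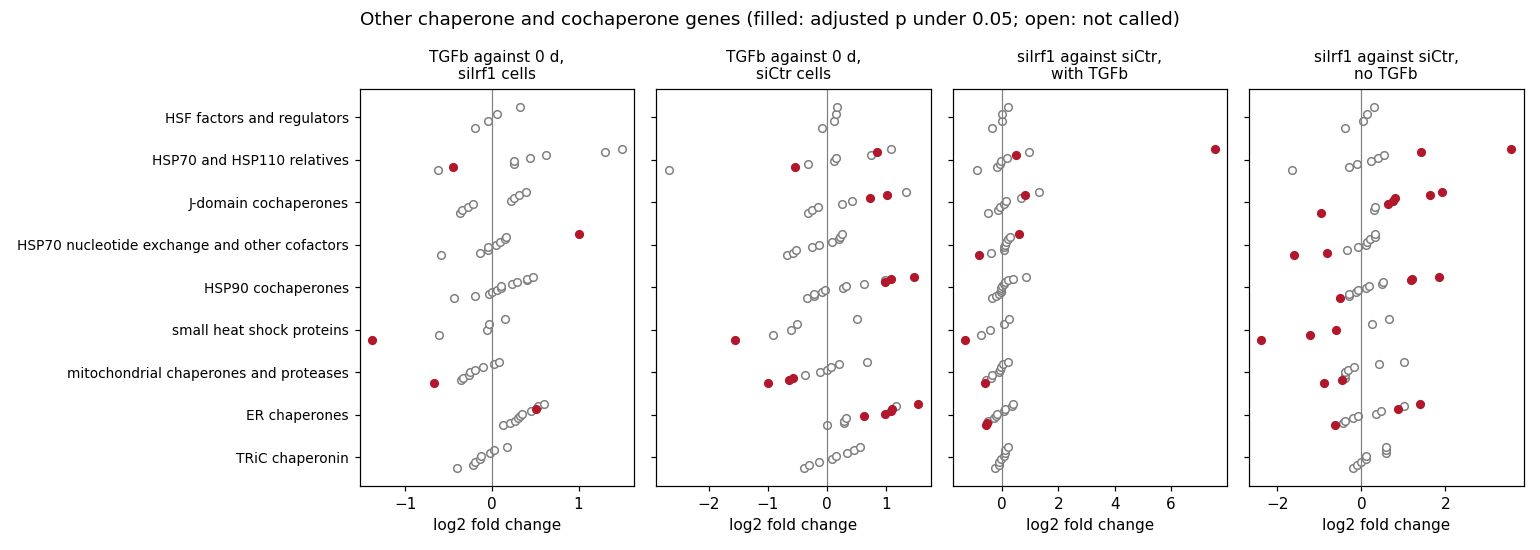
Log2 fold change (horizontal axis) of the 73 other chaperone and cochaperone genes tested, by group, in the same 4 comparisons, with filled points for genes with an adjusted p under 0.05 and open points for the others. ER chaperones lie to the right with TGFbeta in siCtr cells (5 of 10 called), and the points beyond 3 for HSP70 relatives are Hspa12b, whose counts are near 0 and whose fitted fold is not a measure of size.

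As fitted, HSF1 itself and its regulators were not called in any of the 5 comparisons. Of the 4 tested, edgeR and DESeq2 called 0, with 0 at an unadjusted p under 0.05. With the GC trend removed, Hsf2 was lower in siIrf1 0 d (-1.60, edgeR adjusted p = 0.0139), against 0.04 ± 0.435 (adjusted p = 0.953) as fitted. Without the libraries that stood apart, calls appeared among these 4 genes with TGFbeta in siIrf1 cells and between the siRNAs with TGFbeta. Hsf1, the factor that drives the inducible chaperones, stood at 61.6, 83.0 and 63.6 CPM in siIrf1 TGFbeta and 91.2 and 84.8 CPM in siCtr TGFbeta. It stood at 62.8, 86.8 and 64.0 CPM in siIrf1 0 d and 91.4 and 94.2 CPM in siCtr 0 d. In each condition every siIrf1 library was below every siCtr library, as for 22.9% of all genes with TGFbeta and 32.1% without it. The log2 difference was -0.34 ± 0.192 with TGFbeta (edgeR adjusted p = 0.265) and -0.38 ± 0.192 without it (adjusted p = 0.149). For TRiC, the cytosolic chaperonin that folds actin and tubulin, 8 genes were listed. As fitted, edgeR and DESeq2 called 0 of these in each comparison, with at most 1 at an unadjusted p under 0.05. Without the libraries that stood apart, a call appeared with TGFbeta in siIrf1 cells. With the GC trend removed Cct2 rose with TGFbeta in siCtr cells (0.45), and between the siRNAs Cct5 was higher (0.52) and Tcp1 lower (-0.47) in siIrf1 0 d and Tcp1 lower in siIrf1 TGFbeta (-0.51). As fitted, Cct2 gave 0.15 and Cct5 0.12 in these comparisons. Tcp1 gave 0.59 ± 0.227 without TGFbeta (edgeR adjusted p = 0.0723) and 0.07 ± 0.224 with it (adjusted p = 0.866). The sign of Tcp1 thus turned with the treatment of GC content.

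Bag3, an HSP70 exchange factor that leads clients to selective autophagy and is itself induced by stress, stood at 46.6, 45.5 and 46.2 CPM in siIrf1 TGFbeta and 82.6 and 79.7 CPM in siCtr TGFbeta. It stood at 21.7, 28.0 and 19.1 CPM in siIrf1 0 d and 77.4 and 62.5 CPM in siCtr 0 d. As with Hspa1b, the libraries of siIrf1 0 d were the lowest. In each condition every siIrf1 library was below every siCtr library, as for 22.9% of all genes with TGFbeta and 32.1% without it. Bag3 was lower in siIrf1 cells with TGFbeta (-0.82 ± 0.185, edgeR adjusted p = 0.0132) and without TGFbeta (-1.61 ± 0.185, adjusted p = 5.65e-04), and it rose with TGFbeta in siIrf1 cells (1.01 ± 0.170, adjusted p = 0.00176). All 3 calls held with the GC trend removed (-0.50, -0.98 and 0.90). Leaving out 1 library ended only the call with TGFbeta between the siRNAs, without siCtr TGFbeta replicate 2 (-0.85) or 3 (-0.89).

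Of the 5 small heat shock proteins tested, 3 were lower in siIrf1 0 d than in siCtr 0 d and none higher, where 15.5% of all genes were lower. With the GC trend removed 2 were lower, where 1827 of all 13135 genes tested were. Hspb6 stood at 7.20, 4.77 and 6.02 CPM in siIrf1 TGFbeta and 15.4 and 14.3 CPM in siCtr TGFbeta, and at 5.18, 7.31 and 3.61 CPM in siIrf1 0 d and 32.4 and 23.7 CPM in siCtr 0 d. It was lower in siIrf1 cells by -1.31 ± 0.298 with TGFbeta (edgeR adjusted p = 0.0137) and by -2.38 ± 0.301 without it (adjusted p = 8.24e-04), and by -1.06 with and -1.81 without TGFbeta once the GC trend was removed. The call with TGFbeta was lost without siCtr TGFbeta replicate 2 (-1.31) or 3 (-1.41). Cryab, or alpha B-crystallin, fell with TGFbeta in siIrf1 (-1.38 ± 0.152, edgeR adjusted p = 1.14e-04) and in siCtr cells (-1.56 ± 0.187, adjusted p = 1.57e-04), and each call held with every library left out in turn. Its level was 239, 258 and 193 CPM in siIrf1 TGFbeta and 315 and 299 CPM in siCtr TGFbeta, against 576, 688 and 531 CPM in siIrf1 0 d and 935 and 874 CPM in siCtr 0 d.

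Of the 10 ER chaperones, 5 rose with TGFbeta in siCtr cells and none fell, where 16.1% of all genes rose, with a median log2 change of 0.80 beside 0.02 for all genes. Hspa5, or BiP, the HSP70 of the ER, stood at 941 and 1124 CPM in siCtr TGFbeta and 361 and 619 CPM in siCtr 0 d, and rose by 1.08 ± 0.236 (edgeR adjusted p = 0.00633). It was called with every library left out in turn, at 0.78 to 1.64, and with the GC trend removed (1.11). Pdia4, a protein disulfide isomerase, rose by 0.63 ± 0.170 (edgeR adjusted p = 0.0169), a call lost without siCtr TGFbeta replicate 3 (0.62). In siIrf1 cells only Pdia4 of the 10 rose (0.51 ± 0.139, edgeR adjusted p = 0.0247), where 11.6% of all genes rose, and its call was lost without siIrf1 TGFbeta replicate 3 (0.40) or any siIrf1 0 d replicate (0.49, 0.52 and 0.51). Once the GC trend was removed, 6 of the 10 rose in siIrf1 cells, where 2102 of all 13135 genes tested rose (32.1% called in either direction). In siCtr cells 9 of the 10 rose, where 3018 of all genes did (42.4% called in either direction). More of the 10 were also called without the libraries that stood apart, as were more of all genes in siIrf1 cells. The interaction was called for none of the 10.

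Among J-domain proteins, 5 of 8 were higher and 1 was lower in siIrf1 0 d than in siCtr 0 d, where 16.3% of all genes were higher and 15.5% lower. After removal of the GC trend 5 were higher and none lower, where 3019 of all 13135 genes tested were higher (36.9% called in either direction). These 5 were not all the same genes, since Dnaja2 was called as fitted but not with the trend removed. Dnajb2 stood at 22.2, 27.2 and 26.7 CPM in siIrf1 0 d and 52.5 and 47.0 CPM in siCtr 0 d (-0.97 ± 0.190, edgeR adjusted p = 0.00503), but was not called with the GC trend removed (-0.33, adjusted p = 0.0667). Dnajb6, which suppresses aggregation, stood at 58.2 and 64.5 CPM in siCtr TGFbeta and 32.3 and 28.5 CPM in siCtr 0 d. It rose with TGFbeta in siCtr cells by 1.01 ± 0.211 (edgeR adjusted p = 0.00470), with each library left out and with the GC trend removed (1.16).

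Several cochaperones that were higher in siIrf1 0 d lost that call with the GC trend removed. Chordc1, an HSP90 cochaperone with 35.7% GC, gave 1.85 ± 0.459 (edgeR adjusted p = 0.0145) and 0.13 with the trend removed. Ppid, the HSP90-binding cyclophilin 40, gave 1.21 ± 0.320 (adjusted p = 0.0187) and 0.25, Dnaja2 0.79 ± 0.177 (adjusted p = 0.00926) and -0.07, and Hspa13 1.41 ± 0.433 (adjusted p = 0.0336) and 0.16. Each of these 4 calls was also lost without siCtr 0 d replicate 1 (1.30, 0.78, 0.69 and 0.84), that of Ppid and Hspa13 without siIrf1 0 d replicate 3 (1.15 and 1.30) and that of Hspa13 without siIrf1 0 d replicate 1 (1.40). Hspa9, the mitochondrial HSP70, was lower in siIrf1 cells with TGFbeta (-0.61 ± 0.157, edgeR adjusted p = 0.0236) and by -0.67 with the trend removed, and this call was lost without siIrf1 TGFbeta replicate 1 (-0.63) or siCtr TGFbeta replicate 2 (-0.75) or 3 (-0.56).

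The 5 genes whose log2 CPM followed Hsp90aa1 most closely over the 10 libraries, among the 9070 other tested genes that averaged 10 CPM or more, were Bclaf1 (Pearson r 0.9924), Phf20l1 (0.9911), Marchf7 (0.9905), Washc4 (0.9903) and Pcf11 (0.9901). The points share libraries, and groups separate them. Bclaf1 stood at 142, 72.1 and 71.4 CPM in siIrf1 TGFbeta and 54.9 and 37.0 CPM in siCtr TGFbeta, and at 79.9, 85.9 and 89.0 CPM in siIrf1 0 d and 8.76 and 18.2 CPM in siCtr 0 d. The 5 had 39.4 to 42.7% GC, all in the lowest GC quartile, as Hsp90aa1 is. None of them belonged to the chaperone groups.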

How the data were processed

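RNA from 10 libraries of NMuMG/E9 cells was sequenced from a stranded preparation, per the labels' protocols. The authors deposited whole-number read counts per gene. Their alignment used STAR on the mouse assembly mm10 (GRCm38), as the submitters' processing notes list them. The sources used here name neither the counting tool nor its strand setting, so reads of close copies or of overlapping antisense genes may be shared or lost. The deposited gene length is in bases by its size.

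Symbols came from RefSeq for 24374 of 24454 identifiers, promoter sequences from RefSeq (GRCm38.p6), and GC content from GENCODE M21 transcripts (95.0% of genes tested). Counts were fitted with edgeR 4.0.16 in R 4.3.3, by a robust quasi-likelihood F test after TMM scaling and filterByExpr, with all 4 groups in 1 fit, 6 residual degrees of freedom and 13135 genes tested. Adjustment was by Benjamini-Hochberg over all genes of a comparison, with a threshold of 0.05. SE is the size of the log2 fold change over the root of F. The fit was tested on simulated data with 200 changed genes. A floor of 3 counts covers counting error only. The members, gene lists and tests were chosen with earlier results of these data known. The rule for named genes took the members, Irf1, up to 2 called genes per list and comparison with the smallest adjusted p (some are given by count only), and the 5 genes most like Hsp90aa1. Hsf1, Hsf2, Cct2, Cct5, Tcp1, Hspa12b and single cell type markers were named after their values were seen. The rise with Irf1 siRNA put Hsp90aa1 in the set, so a planned count of called members between the siRNAs is not given.

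Alternatives were RLE size factors, no filter, a stricter filter (2 CPM in 3 libraries), DESeq2 1.42.0, only the groups compared, the replicate number as a block, removal of each library's trend over GC content and length by offsets, this with the block, and leaving out each library. Leaving out siCtr 0 d replicate 1 together with siIrf1 TGFbeta replicate 2, and summing Hspa1a and Hspa1b, were chosen after seeing the data. Replicates of a group correlated at 0.971 to 0.995 in log2 CPM across genes. Their chi-square statistic, over its degrees of freedom, was 24.2 to 314, above counting noise, and none was treated as a copy of another. Same-numbered siIrf1 libraries with and without TGFbeta deviated together (r 0.136, 0.448 and 0.302). Replicate 3 of siCtr 0 d also deviated with replicate 3 of siIrf1 TGFbeta (0.342) and of siIrf1 0 d (0.333). In both siIrf1 groups replicate 2 had the lowest GC index. The labels state no pairs, so pairing was not settled. The main fit held no replicate term, and the replicate block was an alternative.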

Additional observations from a re-analysis of the deposited data

How the results depend on the processing

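Over all genes, the interaction gave 541 calls (368 up, 173 down), 1150 with DESeq2 and 1154 (628 up, 526 down) with the GC trend removed. Leaving out 1 library gave 122 to 1590 calls, the highest (396 up, 1194 down) without siCtr 0 d replicate 3. Between the siRNAs with TGFbeta the 2365 calls became 4897 without both libraries that stood apart and 762 to 2978 with 1 library left out. Without TGFbeta the 4175 calls became 1700 to 5192. With TGFbeta in siCtr cells the 4267 calls became 2297 to 5159. In siIrf1 cells the 2799 calls became 4212 with the GC trend removed, 4873 without both libraries and 1957 to 3300 with 1 left out.

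Of the members, the interaction called 1 (Hsp90aa1) without a filter, with the stricter filter, with DESeq2 and with the GC trend removed (not with the block too, which gave 0), and 0 to 1 with 1 library left out. With TGFbeta in siCtr cells, 1 was called without both libraries (Hsp90aa1) and 1 to 2 with 1 left out. In siIrf1 cells, 2 were called with the GC trend removed, alone or with the block (Hspa1b, Hsph1), and 1 to 2 with 1 left out.

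With the replicate block the members called were 0 for the interaction, 1 with TGFbeta in siIrf1 cells and 2 in siCtr cells, as without it. The 12 correlations of same-numbered libraries ran from -0.393 to 0.448, with 8 over 0.1 and both signs present, so the numbers were not taken as pairs in the main fit.

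Among the members' values with TGFbeta and for the interaction, the sign turned only where the main fit made no call, and the cause was not tested. Of these, Hsp90ab1 with TGFbeta in siCtr cells was called in 2 of 20 alternatives, both with the GC trend removed. For the interaction, Dnajb1 gave -0.10 with the GC trend removed, -0.17 with the block too, -0.15 without both libraries and -0.07 to 0.29 with 1 left out (-0.00 without siCtr TGFbeta replicate 2). Hsp90ab1 gave -0.04 without a filter, -0.06 with the stricter one, -0.29 with the GC trend removed, -0.31 with the block too, -0.34 without both libraries and -0.26 to 0.14 with 1 left out. Hspa1a gave -0.50 (without siCtr 0 d replicate 3) to 1.77 with 1 left out, and Hspd1 0.13 without both libraries and -0.57 to 0.01 with 1 left out. With TGFbeta in siCtr cells, Dnajb1 gave 0.01 with the GC trend removed, 0.08 with the block too, 0.04 without both libraries and -0.32 to 0.04 with 1 left out. Hspa1a gave -0.01 with the block, -0.10 without both libraries and -0.10 to 2.17 with 1 left out, Hsp90ab1 -0.03 to 0.37 and Hspa8 -0.01 to 0.43. In siIrf1 cells, Hsp90aa1 gave 0.07 with the GC trend removed, 0.06 with the block too, 0.09 without both libraries and -0.28 to 0.12 with 1 left out. With the GC trend removed, alone and with the block, Hspa8 gave 0.17 and 0.17 and Hspe1 0.13 and 0.13. With 1 library left out Hspa8 gave -0.18 to 0.03, Dnajb1 -0.10 to 0.01 and Hspd1 -0.04 to 0.38.

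Groups of 2 libraries, counts of 0 to 17 for Hspb1 and of 1 to 73 for Hspa1a, and transcripts shared with copies limit what can be said of single members. Fewer cells of a type and less RNA per cell cannot be told apart.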
